A study of Macaca mulatta with 7 samples.

Results

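The cadherins and protocadherins of the macaque spinal cord were described across 7 single-nucleus RNA libraries. A gene was counted as a member where its symbol in the deposited gene list was CDH followed by digits only, or PCDH followed by a digit or by GA, GB or GC. This rule found 34 of the 17149 symbols in the list, 23 CDH genes and 11 PCDH genes. PCDH11X and PCDH20 carried no symbol there and were named through a reference table of gene identifiers, so they are described beside the 34 and are not counted among them. A further 12 symbols, of the PCDHA and PCDHB groups, fell outside the rule and were left out.

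All libraries came from adult rhesus monkeys, and the study's methods describe the animals as female. The untreated spinal cord, from 1 animal of 5 years, gave an intact cervical, an intact thoracic and an intact lumbar library. The 4 injured libraries were taken from the lumbar cord below a complete thoracic transection with removal of a piece of cord, at 7 days post injury (dpi) and 14 dpi in animals of 7 years, and at 30 dpi and 6 months post injury (mpi) in animals of 6 years. Each condition was 1 library, so time, animal, age and library cannot be told apart, and no test between conditions was made. Intervals given below are exact 95% intervals that cover counting error only.

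The libraries held 9966, 12015 and 11735 barcodes in the intact cervical, thoracic and lumbar cord and between 6134 and 10145 in the injured cord, with total counts of 45079131 to 150987900 unique molecular identifiers (UMIs). After filters, 63730 nuclei were kept. Each pair of libraries shared 12 to 36 barcodes. Nuclei were clustered with the members left out, and 5 classes with at least 50 nuclei in every library were named from marker genes: oligodendrocyte-like (such as MBP), oligodendrocyte precursor-like (OPC-like, PDGFRA and VCAN), astrocyte-like (AQP4 and GFAP), microglia-like (CSF1R and PTPRC, a class that takes in macrophages) and neuron-like (RBFOX3 and SNAP25). Intact and injured libraries fell into different clusters within some classes. The clustering applied no correction for differences between libraries, and their part in this was not tested. Of the microglia-like nuclei, 83.8 to 93.2% of each intact library lay in 1 cluster led by MRC1 and CALCR, whereas the largest cluster was a different one in each injured library. The largest oligodendrocyte-like cluster also differed between all 3 intact and all 4 injured libraries, while the OPC-like class was essentially 1 cluster throughout. Levels are UMIs of a gene per 1000000 UMIs of that class in that library (CPM), and they are compared between classes or libraries for the same gene, not between genes.

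Cadherins are membrane proteins that bind one another in a calcium-dependent manner, usually between like molecules on neighbouring cells. Classical type I and type II cadherins reach the actin cytoskeleton through catenins, CDH13 (T-cadherin) lacks a cytoplasmic tail and is held by a lipid anchor, and protocadherins signal through tails of their own. In the nervous system different cell types carry different sets of cadherins, which are known for roles in neuron sorting, axon targeting and the contacts between glia.

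The promoter sequence is shown for PCDH11X, a gene on which the results between intact and injured cord turned in oligodendrocyte-like nuclei. It is the 250 bases before the RefSeq transcription start of the Mmul_10 genome, 5′ to 3′ on the plus strand, which is the coding strand of the gene. Capitals mark matches, on either strand, to CAGGTG (the letters of an E-box) or to GGGCGG (a GC box), the only letters searched for.
PCDH11X (chrX:88525870-88526119): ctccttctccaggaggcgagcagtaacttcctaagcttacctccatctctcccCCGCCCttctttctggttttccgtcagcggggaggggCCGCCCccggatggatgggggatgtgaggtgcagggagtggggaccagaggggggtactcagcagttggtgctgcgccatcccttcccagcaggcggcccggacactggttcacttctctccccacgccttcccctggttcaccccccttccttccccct
The PCDH11X window held 0 matches to CAGGTG, 2 to GGGCGG and 10 CpG dinucleotides. Of 21102 promoters of the same length, 19.5% held CAGGTG and 43.4% GGGCGG, and the median was 12 CpG dinucleotides. The matches describe letters in the windows and say nothing of binding.

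Neuron-like and OPC-like nuclei carried the highest mean level of most members. This is a description, since the share of all genes led by each class was not counted. Of the 30 members with at least 200 UMIs over the 5 classes, the mean level over the 7 libraries was highest in OPC-like nuclei for 10, in neuron-like nuclei for 9, in astrocyte-like nuclei for 6, in oligodendrocyte-like nuclei for 3 and in microglia-like nuclei for 2. Some leads were narrow, such as PCDH7 at a mean of 1424 CPM in OPC-like and 1409 in neuron-like nuclei. CDH13 is counted with OPC-like nuclei, although microglia-like nuclei led it in all 3 intact libraries. The leading class was the same in all 7 libraries for 14 of the 30 members, and for 47.8% of all genes tested the same way. Of those 14, 7 were led by neuron-like nuclei, 3 by OPC-like, 2 by astrocyte-like, 1 by oligodendrocyte-like and 1 by microglia-like nuclei. CDH5, CDH15, CDH16 and PCDH12 stayed under 200 UMIs. CDH16 was at 0 in all 5 classes of all 7 libraries. CDH5, the cadherin of endothelial junctions, reached 83.01 CPM (63.5 to 106.6) in the 149 endothelial-like nuclei of all libraries together, against at most 0.689 in neuron-like nuclei of any library.

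**Figure D1:**
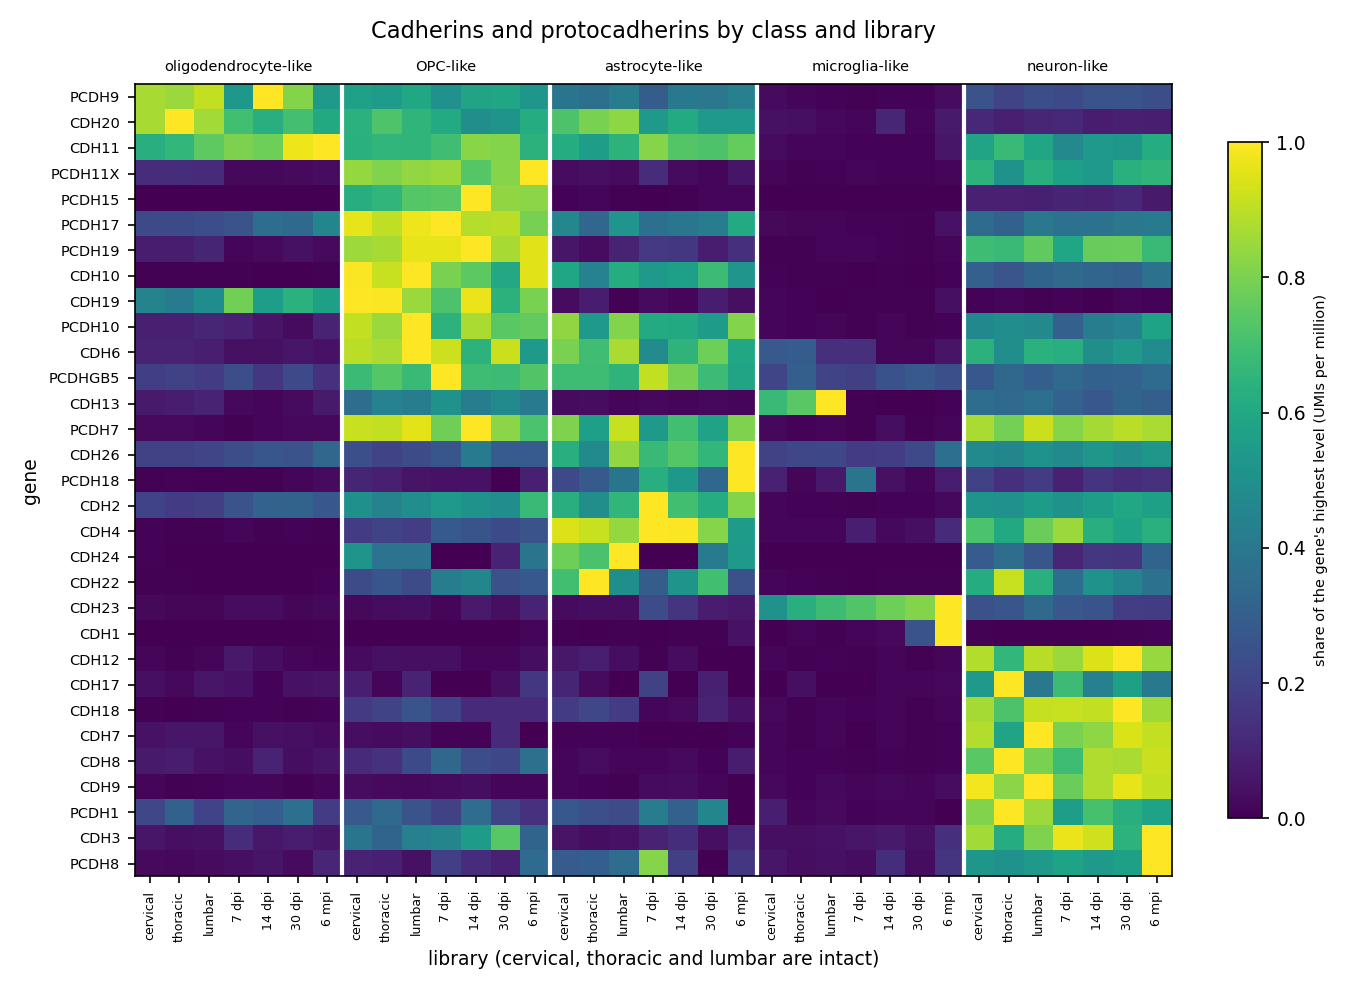
Level of the 30 members with at least 200 UMIs and of PCDH11X (rows) in each class and library (columns, 7 per class), in colour as a share of that gene's highest level in CPM. CDH7, CDH9 and CDH12 are bright in the neuron-like columns and dark elsewhere, CDH13 is bright in the intact but dark in the injured microglia-like columns, and CDH1 is brightest in the microglia-like column of 6 mpi, at 250.7 CPM.

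Injury was read by a rule of size, since 1 library per condition allows no test: a gene was called where all 4 injured libraries lay at least 2-fold above the highest, or at least 2-fold below the lowest, of the 3 intact libraries. Among members with at least 200 UMIs in a class, this rule called 1 of 19 in microglia-like nuclei, CDH13, which was lower (0.728% of all genes tested were called lower there and 1.4% higher). It called 0 of 23 members in oligodendrocyte-like nuclei (0.613% of all genes higher and 0.567% lower), 0 of 22 in OPC-like nuclei (0.136% and 0.115%), 0 of 19 in astrocyte-like nuclei (0.343% and 0.144%) and 0 of 30 in neuron-like nuclei (0.248% and 0.17%). PCDH11X, outside the 34, was called lower in oligodendrocyte-like nuclei. The median tested member differed little between injured and intact cord. As the mean log2 level of the injured minus that of the intact libraries it stood at -0.21 in microglia-like nuclei (0.02 over all genes tested), -0.14 in astrocyte-like nuclei (0.02), 0.01 in oligodendrocyte-like nuclei (0.05), 0.01 in OPC-like nuclei (0.00) and -0.01 in neuron-like nuclei (0.01).

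A looser count, chosen after the values were seen, took members for which all 4 injured libraries lay outside the range of the 3 intact libraries by any amount. In oligodendrocyte-like nuclei 5 of 23 members lay above it (21.7%, against 13.7% of all genes tested) and 5 below it (21.7%, against 10.6%). In OPC-like nuclei 3 of 22 lay above (13.6%, against 7.28%) and 1 below (4.55%, against 7.86%). In astrocyte-like nuclei 1 of 19 lay above (5.26%, against 8.77%) and 3 below (15.8%, against 6.91%). Oligodendrocyte-like nuclei thus held the most members outside the intact range, 10 in all. In microglia-like nuclei 2 of 19 lay above (10.5%, against 13.9%) and 1 below (5.26%, against 11.9%), and in neuron-like nuclei 1 of 30 lay above (3.33%, against 9.52%) and 3 below (10%, against 11.0%).

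CDH13, the lipid-anchored T-cadherin, lies at 20:69645940-70810617 on the plus strand of Mmul_10 and was present in each of the 5 classes. Among these it stood apart between intact and injured cord mainly in microglia-like nuclei. There it measured 1011, 1117 and 1499 CPM in the intact cervical, thoracic and lumbar libraries, against 9.46, 4.69, 3.35 and 14.9 in the injured libraries from 7 dpi to 6 mpi. The groups did not overlap, and the highest injured library lay more than an order of magnitude below the lowest intact one. Against intact lumbar cord the log2 ratio was lowest at 30 dpi, at -8.81 (-9.13 to -8.50), and highest at 6 mpi, at -6.66 (-6.96 to -6.37). After each nucleus was thinned to 1000 UMIs, 45.0 to 59.1% of intact and 0.388 to 0.940% of injured microglia-like nuclei held a CDH13 UMI. Without thinning the shares were 66.3 to 76.1% and 1.86 to 2.62%. In astrocyte-like nuclei of the injured libraries, where CDH13 was low, the thinned share was 1.72 to 4.08%, above the injured microglia-like shares, and the part of free RNA in either was not tested.

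The few nuclei that crossed between the intact and the injured microglia-like clusters carried intermediate CDH13 levels. In the MRC1 and CALCR cluster CDH13 measured 1066, 1169 and 1548 CPM in intact cervical, thoracic and lumbar cord, against 105 (52.6 to 189) in the 43 nuclei of the injured libraries found there, which held 11 CDH13 UMIs. In an injured-cord cluster led by ABCA4 and SLC11A1, the 30 intact nuclei measured 472.5 (331 to 654) and the 3563 injured nuclei 11.7 (9.94 to 13.7). In a cluster led by TGM2, ITGAX and GPNMB, the 41 intact nuclei measured 294 (219 to 387) and the 2125 injured nuclei 3.68 (2.76 to 4.82). The difference between intact and injured nuclei was thus seen within each of these 3 clusters as well as between them. What part droplets holding more than 1 nucleus, or free RNA, had in the levels of so few nuclei was not tested.

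**Figure D2:**
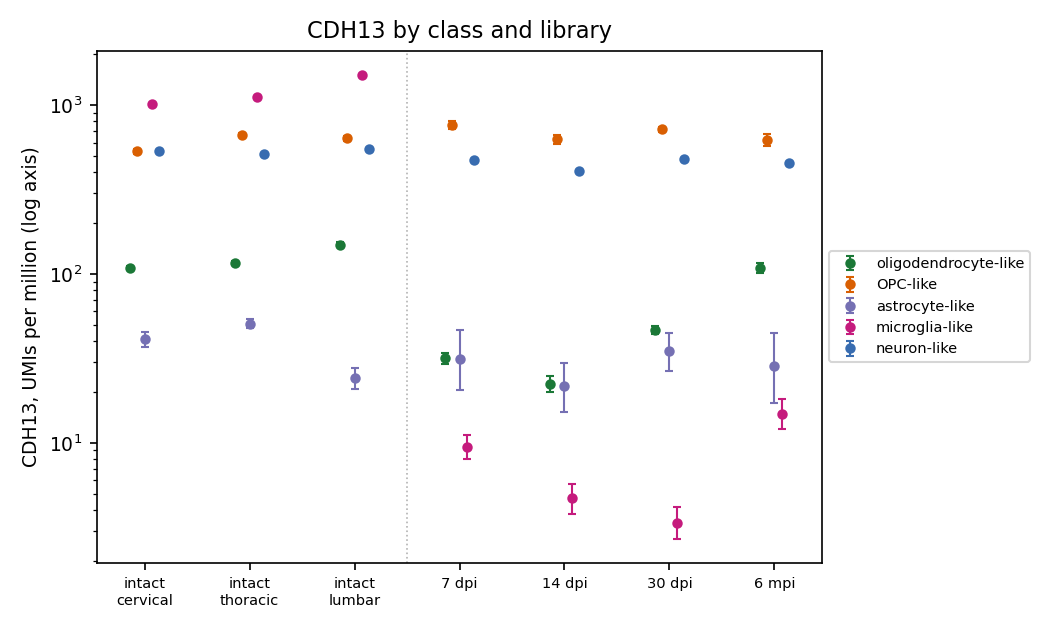
CDH13 in CPM (log axis) in each of the 5 classes and 7 libraries, with exact 95% Poisson intervals as bars. The microglia-like points fall from 1011 to 1499 in the intact libraries to between 3.35 and 14.9 in the injured ones, whereas the OPC-like points stay between 533 and 767.

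Of the 5 classes, the others differed less in CDH13. In oligodendrocyte-like nuclei it measured 108, 116 and 149 CPM in intact cervical, thoracic and lumbar cord, against 31.6, 22.3, 46.7 and 108 from 7 dpi to 6 mpi. The first 3 injured libraries lay more than 2-fold below every intact one, while the 6 mpi library lay within the intact range, so that CDH13 was called lower there only when the 6 mpi library was left out. The log2 ratio to intact lumbar cord was -2.24 (-2.36 to -2.12) at 7 dpi, -2.74 (-2.90 to -2.58) a week later, -1.67 (-1.76 to -1.58) at 30 dpi and only -0.46 (-0.56 to -0.35) at the latest time. The thinned share of oligodendrocyte-like nuclei with a CDH13 UMI was 10.3 to 14.6% in intact cord and 3.20, 1.99, 4.41 and 8.72% in the injured libraries. In OPC-like nuclei CDH13 measured 533, 666 and 636 in intact and 767, 628, 717 and 622 in injured cord, and these ranges overlapped. In neuron-like nuclei it measured 535, 513 and 549 in intact and 471, 410, 482 and 454 in injured cord, below every intact library but by no more than 0.42 on the log2 scale against intact lumbar cord. In astrocyte-like nuclei it lay between 21.6 and 50.6 in all 7 libraries, with overlap. The 5 genes whose levels over the 35 points of class and library were most like those of CDH13 were PTH2R (Pearson r = 0.84 on log2 of CPM plus 1), GPR63 (0.81), STARD4 (0.81), GALNT13 (0.79) and AMOTL1 (0.78). These points share libraries and nuclei across classes, and the values are a description. GALNT13, for example, measured 662 to 739 in intact and 84.8 to 188 in injured microglia-like nuclei, with 728 to 1143 in OPC-like nuclei.

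Among the type I cadherins, CDH1 (E-cadherin, the main cadherin of epithelial junctions) showed the largest difference upward, and its level was not the same at all times after injury. It lies at 20:55970849-56072730 on the plus strand, and it was singled out after its values were seen. In microglia-like nuclei CDH1 measured 0.832, 4.34 and 1.08 CPM in intact cervical, thoracic and lumbar cord, against 3.36, 6.75, 64.0 and 250.7 from 7 dpi to 6 mpi. The 7 dpi library overlapped the intact thoracic one, so CDH1 was not called, and the 30 dpi and 6 mpi libraries lay far above every other. The level at 6 mpi depended on the rule of naming, as described below. The log2 ratio to intact lumbar cord was 1.64 (0.56 to 2.92) in the 7 dpi library, 2.64 (1.63 to 3.88) in that of 14 dpi, 5.89 (4.91 to 7.10) in that of 30 dpi and 7.86 (6.88 to 9.07) in that of 6 mpi. With intact lumbar cord alone as the baseline, or without the intact thoracic library, CDH1 was called higher. The thinned share of microglia-like nuclei with a CDH1 UMI was 0.0950 to 0.273% in intact cord and 0.427, 0.453, 4.03 and 17.4% from 7 dpi to 6 mpi. Without thinning it was 11.0% at 30 dpi and 30.8% at 6 mpi. In oligodendrocyte-like nuclei, which are not known to use CDH1, the thinned share was at most 0.103% in any library. Levels in other classes were also highest at 6 mpi. In astrocyte-like nuclei CDH1 measured 12.1 (5.21 to 23.8) there, from 8 UMIs, against 0.870 to 1.95 in intact cord. In neuron-like nuclei it measured 1.46 (1.17 to 1.80) at 30 dpi and 2.15 (1.60 to 2.84) at 6 mpi, against 0.310 to 1.04 in intact cord. The summed level of 7 microglia markers was 120.7 at 6 mpi in astrocyte-like nuclei, against 19.6 to 60.3 in intact cord, and 70.04 in neuron-like nuclei, against 49.7 to 68.3. What part free RNA or droplets with more than 1 nucleus had in these levels was not tested.

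CDH1 was concentrated in the microglia-like clusters marked by GPNMB, a glycoprotein known from phagocytic macrophages. In the TGM2, ITGAX and GPNMB cluster it measured 15.9 CPM at 7 dpi (279 nuclei), 54.8 a week later (327 nuclei), 144.6 at 30 dpi (1443 nuclei) and 250.1 at 6 mpi (76 nuclei). The 41 intact nuclei in this cluster also held CDH1, at 149.9 (97.9 to 220) from 26 UMIs. In a cluster that was almost wholly from 6 mpi, 1338 nuclei there, and was led by CDH1, GPNMB and CHIT1, it measured 394. CDH1 was left out of the genes used for clustering, as were all members. In the other injured microglia-like clusters with at least 50 nuclei from a library it lay between 0 and 12.5. Both the number of nuclei in the GPNMB clusters and the level of CDH1 within the TGM2, ITGAX and GPNMB cluster were higher at 30 dpi and 6 mpi than at 7 and 14 dpi, while the level of the 41 intact nuclei was not below that of 30 dpi. A cluster found in 1 library may reflect that library, and under a stricter rule of naming this 6 mpi cluster stayed unnamed, which left 1001 microglia-like nuclei at 6 mpi with CDH1 at 29.3. That was below the level given above for 30 dpi under the main rule. The summed level of 8 oligodendrocyte markers in microglia-like nuclei was 1618 at 6 mpi and 997 to 1309 in the other libraries. CDH1 itself was 0.245 to 1.12 in oligodendrocyte-like nuclei.

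**Figure D3:**
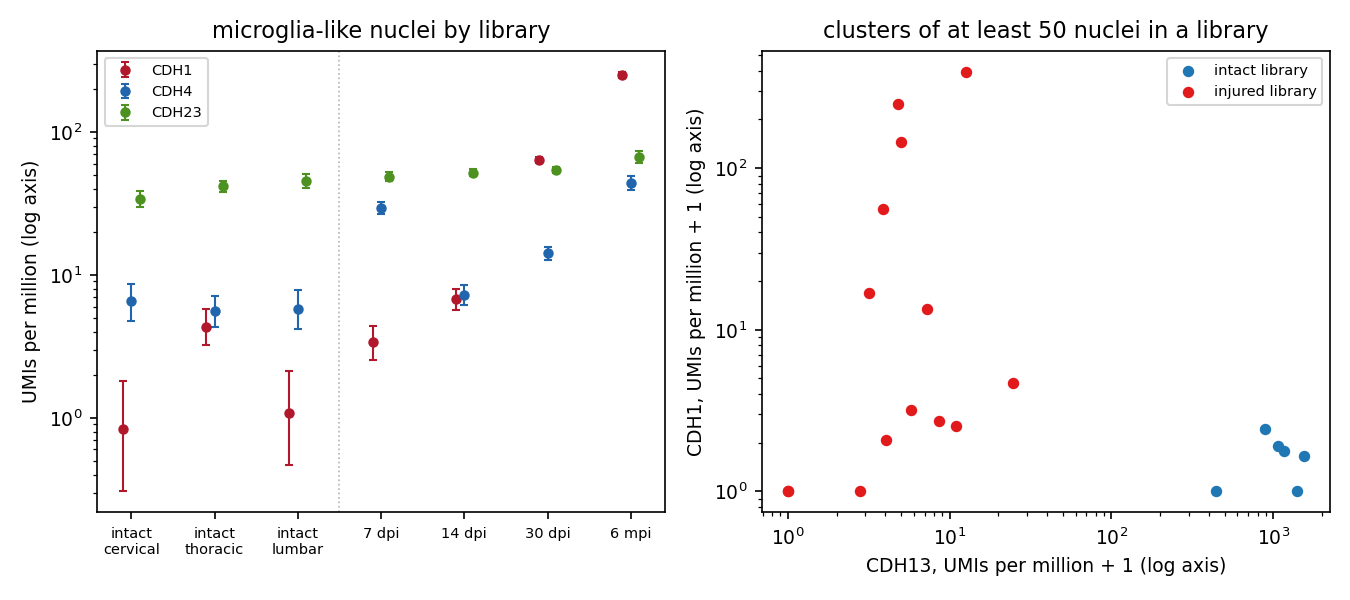
Left, CDH1, CDH4 and CDH23 in microglia-like nuclei of the 7 libraries, in CPM on a log axis with exact 95% Poisson intervals. Right, CDH1 against CDH13, each in CPM plus 1 on log axes, in every microglia-like cluster with at least 50 nuclei from a library, 1 point per cluster and library. Intact points sit at high CDH13 and low CDH1, and injured points at low CDH13 with CDH1 from 0 to 394.

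CDH4 (R-cadherin) was also higher after injury in microglia-like nuclei, at 6.52, 5.58 and 5.81 CPM in intact cord and 29.3, 7.28, 14.1 and 44.0 from 7 dpi to 6 mpi. All 4 injured libraries lay above the intact ones, but the 14 dpi library only just, and CDH4 was called higher when that library was left out. Under the stricter rule of naming the 6 mpi level was 23.8 and the 7 dpi level 29.2, so that 7 dpi was then the highest. The log2 ratio to intact lumbar cord was 2.33 (1.88 to 2.82) at 7 dpi and 0.33 (-0.17 to 0.85) at 14 dpi. In OPC-like nuclei CDH4 lay at 61.7 to 72.6 in intact and 80.3 to 100.1 in injured cord, again without overlap. Of the 5 classes CDH4 was highest on average in astrocyte-like nuclei, with a mean of 309 over the 7 libraries, and the intact and injured ranges overlapped. It measured 378 (358 to 399) in the 623 ependymal-like nuclei of all libraries together. CDH2 (N-cadherin, the main classical cadherin of neural cells) was higher after injury in oligodendrocyte-like nuclei, where it measured 154, 137 and 144 in intact and 196, 239, 242 and 206 in injured cord. The groups did not overlap, and the log2 ratio to intact lumbar cord ran from 0.45 (0.38 to 0.51) at 7 dpi to 0.75 (0.69 to 0.81) at 30 dpi. Of the 5 classes CDH2 was highest on average in astrocyte-like nuclei, at 377.5 to 762.4, and it reached 927 in ependymal-like nuclei. CDH3 (P-cadherin) and CDH15 (M-cadherin) were low, with CDH3 highest on average in neuron-like nuclei at 16.7 to 26.9.

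The type II cadherins CDH11, CDH19 and CDH20 also lay outside the intact range in oligodendrocyte-like nuclei, in different directions. CDH19, a cadherin known from Schwann cell and oligodendrocyte lineages, measured 304, 281 and 329 CPM in intact cervical, thoracic and lumbar cord, against 535, 378, 434 and 387 from 7 dpi to 6 mpi. CDH11 (OB-cadherin) measured 178, 187 and 211.5 in intact and 226.5, 220.0, 275 and 282 in injured cord. CDH20 measured 477, 548 and 472 in intact and 381, 343, 385 and 333 in injured cord. For each of these 3 genes the intact and injured libraries did not overlap, with CDH19 and CDH11 higher and CDH20 lower after injury. CDH20 was also below the intact range in OPC-like nuclei (350.1 to 397 against 272 to 340.1) and in astrocyte-like nuclei (396 to 454.5 against 295 to 335). CDH11 was also above it in astrocyte-like nuclei, at 158 to 183 against 203.5 to 231. These differences were under 2-fold: the log2 ratio of CDH19 to intact lumbar cord in oligodendrocyte-like nuclei was 0.70 (0.66 to 0.74) at 7 dpi and 0.20 (0.15 to 0.25) at 14 dpi, and that of CDH20 was -0.31 (-0.35 to -0.27) and -0.46 (-0.51 to -0.42). For CDH11 there it was 0.057 (-0.005 to 0.119) at 14 dpi, within counting error, and 0.378 (0.327 to 0.429) at 30 dpi. CDH11 in astrocyte-like nuclei was within counting error at 30 dpi, 0.156 (-0.015 to 0.325), and 6 mpi, 0.241 (-0.018 to 0.489). So was CDH20 in OPC-like nuclei at 7 dpi, -0.099 (-0.238 to 0.039), and 6 mpi, -0.078 (-0.256 to 0.096), but not at 14 dpi, -0.402 (-0.555 to -0.252). The largest oligodendrocyte-like cluster was a different one in intact and injured cord. Its part in the levels of members in this class was not tested.

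Other type II cadherins that differed were at lower levels. CDH12 in oligodendrocyte-like nuclei measured 3.43 to 7.05 in intact cord, and 30.5, 16.9, 5.39 and 4.83 from 7 dpi to 6 mpi, so only the 2 earliest injured libraries stood above the intact ones. CDH6 in microglia-like nuclei measured 24.1, 25.2 and 11.5 in intact cord and 11.9, 1.20, 1.38 and 4.44 in injured cord. The 7 dpi library overlapped intact lumbar cord, and CDH6 was called lower without either of these libraries. CDH6 and CDH7 in oligodendrocyte-like nuclei lay below the intact range, CDH6 at 7.37 to 8.41 against 3.73 to 5.32 and CDH7 at 7.95 to 10.4 against 2.09 to 7.77. For CDH7 the margin was narrow, with the highest injured over the lowest intact library at -0.03 on the log2 scale. Its log2 ratio to intact lumbar cord was -2.31 (-2.79 to -1.85) at 7 dpi and -0.42 (-0.74 to -0.10) at 14 dpi. CDH22 in neuron-like nuclei measured 26.4, 39.1 and 27.2 in intact cord and 15.5, 21.8, 19.3 and 15.9 in injured cord, without overlap.

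In astrocyte-like nuclei CDH18 and CDH12 were type II cadherins that lay below the intact range in all 4 injured libraries, although the injured libraries held only 98 to 251 such nuclei. CDH18 measured 148, 176.5 and 145 CPM in intact cervical, thoracic and lumbar cord, against 11.4, 21.0, 83.1 and 40.7 from 7 dpi to 6 mpi. All injured libraries lay below the intact ones, the 30 dpi library by less than 2-fold, and CDH18 was called without it. The log2 ratio to intact lumbar cord was -3.67 (-4.804 to -2.741) at 7 dpi and -0.80 (-1.06 to -0.55) at 30 dpi. The 2 astrocyte-like clusters carried different CDH18 levels and took different shares of each library. Within the cluster led by SLC14A1 and MYBPC1 CDH18 measured 195 to 297 over the intact segments, against 13.8, 53.5 and 117 from 7 to 30 dpi. Within the cluster led by ITPRID1 and SLC1A2 it measured 26.8 to 67.7 in intact cord, 5.20 (1.91 to 11.3) at 14 dpi from 6 UMIs and 11.8 (3.83 to 27.6) at 6 mpi from 5 UMIs. CDH18 was thus below the intact range within each cluster, in the libraries with at least 50 nuclei there. At 6 mpi in this cluster the interval reached the lowest intact value. CDH12 measured 29.4, 38.3 and 16.6 in intact and 2.52, 15.2, 1.15 and 1.51 in injured astrocyte-like nuclei, and was called lower without the 14 dpi library. At 14 dpi its log2 ratio to intact lumbar cord was -0.13 (-0.80 to 0.48), within counting error. Within the cluster led by SLC14A1 and MYBPC1 it measured 34.1 to 50.04 in intact cord and 2.30, 33.9 and 1.65 from 7 to 30 dpi. Within the cluster led by ITPRID1 and SLC1A2 it was not below the intact range at 14 dpi, at 2.39 to 4.66 in intact cord against 6.07 at 14 dpi and 2.36 at 6 mpi, where it rested on 7 UMIs and 1 UMI. The second cluster held 64.5% of the astrocyte-like nuclei at 14 dpi and 67.2% at 6 mpi, and the part of these shares in the class level was not tested. In neuron-like nuclei, where CDH18 and CDH12 were highest, CDH18 lay at 599 to 757 in intact and 713 to 830 in injured cord and CDH12 at 303 to 407 and 387 to 457, with overlap.

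Among the delta-protocadherins, PCDH11X in oligodendrocyte-like nuclei showed the clearest difference. This X-linked protocadherin lies at X:88526120-89309219 on the plus strand, and it was singled out after its values were seen. It measured 123, 128 and 121 CPM in intact cervical, thoracic and lumbar cord, against 19.9, 22.4, 25.7 and 33.3 from 7 dpi to 6 mpi. The groups did not overlap, and every injured library lay more than 3-fold below every intact one. The log2 ratio to intact lumbar cord was lowest at 7 dpi, at -2.61 (-2.75 to -2.46), and highest at 6 mpi, at -1.87 (-2.04 to -1.69). The thinned share of oligodendrocyte-like nuclei with a PCDH11X UMI was 9.33 to 10.3% in intact and 1.99 to 2.84% in injured cord, against 0.802 to 1.496% of microglia-like nuclei. In OPC-like nuclei PCDH11X lay at 795 to 824 in intact and 724 to 980 in injured cord, and in neuron-like nuclei at 500 to 634.5 and 532 to 640, with overlap in both. The summed level of 6 OPC markers in oligodendrocyte-like nuclei was 432 to 454 in intact and 298 to 505 in injured cord.

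PCDH11X was uneven within the oligodendrocyte-like class, and the clusters that carried most of it were filled by different libraries. In the cluster that was largest in intact cord, which held OPALIN, it measured 289, 342 and 252 CPM in intact cervical, thoracic and lumbar cord, 224 in the 108 nuclei at 14 dpi and 86.7 in the 239 nuclei at 6 mpi. In the cluster that was largest after injury, led by CPB1, TRPM1 and OPALIN, it measured 190 in the 51 intact lumbar nuclei and 31.5, 30.2, 23.0 and 54.2 from 7 dpi to 6 mpi. In the cluster led by KCNMB4 and ENPP6 it measured 109 to 133 in intact cord, 16.5 in the 55 nuclei at 14 dpi and 9.25 in the 185 nuclei at 6 mpi. Within these 3 clusters the injured nuclei were lower in each comparison but came near the intact value at 14 dpi in the first. The remaining large clusters were low in PCDH11X whichever library filled them, at 7.77 to 15.3 in intact cord for the cluster led by RAI14 and CNMD, and at 3.87 to 12.9 in injured cord for the cluster led by PEBP4 and OTOP1.

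**Figure D4:**
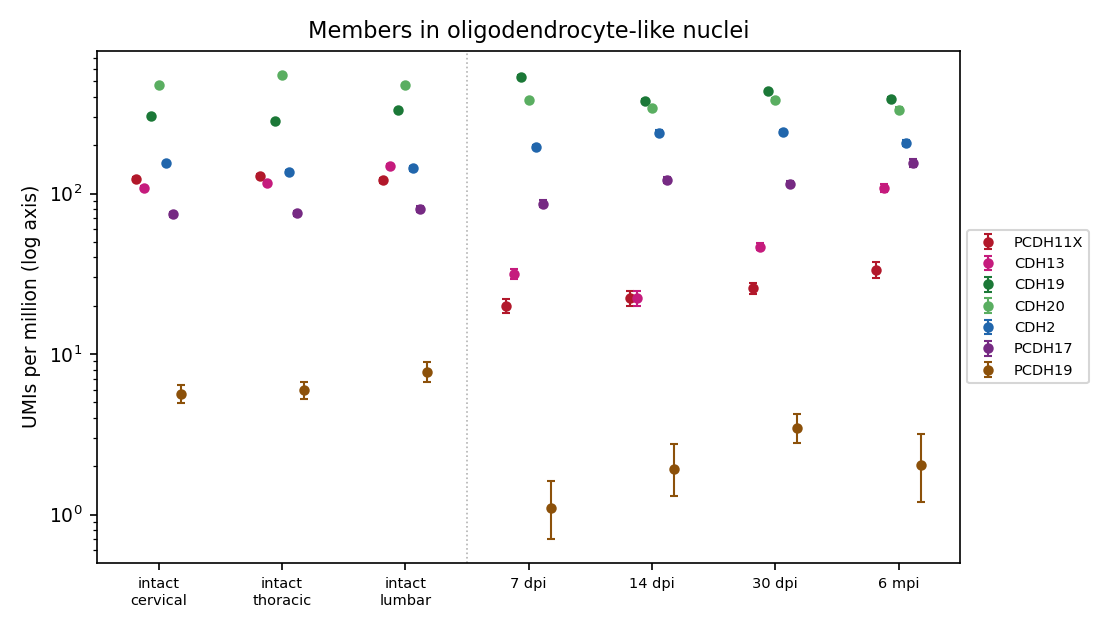
Levels of PCDH11X and of members in oligodendrocyte-like nuclei of the 7 libraries (CPM, log axis, exact 95% Poisson intervals). PCDH11X lies at 121 to 128 in intact and 19.9 to 33.3 in injured cord, while CDH19 and CDH2 are higher and CDH20 lower after injury by less than 2-fold.

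The other delta-protocadherins differed less. PCDH9 was highest in oligodendrocyte-like nuclei in all 7 libraries, at 14560, 14240 and 15210 CPM in intact and 8918, 16780, 13690 and 9068 in injured cord. The 7 dpi, 30 dpi and 6 mpi libraries lay below the intact range and the 14 dpi library above it. PCDH17 in oligodendrocyte-like nuclei measured 74.2, 75.4 and 80.5 in intact and 86.6, 121, 115 and 155 in injured cord, without overlap, with a log2 ratio to intact lumbar cord that was lowest at 7 dpi, 0.11 (0.02 to 0.20), and highest at 6 mpi, 0.95 (0.85 to 1.04). PCDH19, an X-linked gene mutated in a childhood epilepsy, measured 5.65, 5.94 and 7.72 in intact and 1.09, 1.93, 3.45 and 2.02 in injured oligodendrocyte-like nuclei. The groups did not overlap, but the 30 dpi library lay less than 2-fold below the lowest intact one, and PCDH19 was called lower without it. In OPC-like nuclei, where PCDH19 was highest, it stayed between 64.6 and 75.5 in all 7 libraries. PCDH7 lay at 1482 to 1569 in intact and 1169 to 1633 in injured OPC-like nuclei, with overlap. PCDH8 in neuron-like nuclei, at 4.72 to 4.97 in intact and 5.01 to 9.26 in injured cord, and PCDH1, at 12.1 to 14.96 and 8.33 to 10.6, were low genes that lay outside the intact range, PCDH8 by a log2 ratio to intact lumbar cord of 0.90 (0.66 to 1.13) at 6 mpi but of only 0.11 (-0.14 to 0.35), 0.01 (-0.20 to 0.22) and 0.08 (-0.14 to 0.29) at 7, 14 and 30 dpi, and PCDH1 by -0.62 (-0.80 to -0.43) at 7 dpi. PCDH20 was highest in OPC-like nuclei, at 6.18 to 13.7.

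PCDH15 and CDH23, which pair as the tip link of inner ear hair cells, were highest in different ones of the 5 classes. Both were also found in the 623 ependymal-like nuclei, PCDH15 at 407 CPM (386.2 to 428.7) and CDH23 at 58.8 (51.1 to 67.4). PCDH15 led in OPC-like nuclei in all 7 libraries, at 4091, 4336 and 4841 CPM in intact cervical, thoracic and lumbar cord and 4886, 6571, 5486 and 5439 from 7 dpi to 6 mpi. All injured libraries lay above the intact ones, but at 7 dpi the log2 ratio to intact lumbar cord was 0.01 (-0.02 to 0.05), and at 14 dpi it was 0.44 (0.41 to 0.47). In oligodendrocyte-like nuclei PCDH15 was low and lay below the intact range, at 10.8 to 13.7 in intact and 5.20 to 9.70 in injured cord. CDH23 led in microglia-like nuclei in all 7 libraries, at 34.1, 41.7 and 45.5 in intact and 48.5, 51.8, 54.2 and 66.5 in injured cord. The highest intact and lowest injured values were close, and the log2 ratio to intact lumbar cord was 0.09 (-0.10 to 0.28) at 7 dpi and 0.55 (0.34 to 0.76) at 6 mpi. CDH26, a cadherin that is not of the classical types, lay above the intact range in oligodendrocyte-like nuclei, at 12.19 to 13.3 in intact and 15.2, 17.0, 16.2 and 21.0 in injured cord, and in OPC-like nuclei, at 12.9 to 15.4 and 16.9 to 26.15. Its log2 ratio to intact lumbar cord in OPC-like nuclei was 0.85 (0.27 to 1.42) at 14 dpi. The ratios at 7 dpi, 0.22 (-0.46 to 0.87), 30 dpi, 0.36 (-0.15 to 0.87), and 6 mpi, 0.34 (-0.52 to 1.12), were within counting error. In oligodendrocyte-like nuclei the ratio was 0.20 (-0.02 to 0.42) at 7 dpi, within counting error, and 0.66 (0.40 to 0.93) at 6 mpi. PCDHGB5, the only symbol of the clustered gamma protocadherins found by the rule, was present in all 5 classes. Reads may be shared between the genes of that cluster, so the level may not be that of PCDHGB5 alone, which was not tested. PCDHGB5 lay between 403 and 690 in astrocyte-like and OPC-like nuclei and between 99.1 and 241 in the other classes.

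The partners of cadherins, a list of 32 catenins, atypical cadherins, proteases and other binding proteins, held 0 genes called in any of the 5 classes, of 27 tested in oligodendrocyte-like, 24 in OPC-like, 25 in astrocyte-like, 31 in neuron-like and 26 in microglia-like nuclei. The shares of all genes called in each class are those given above for the members. The median tested partner differed by -0.16 on the log2 scale in microglia-like nuclei (0.02 over all genes tested) and by 0.05 to 0.09 in the other glial classes (0.00 to 0.05). JUP (plakoglobin) in microglia-like nuclei came nearest to the rule, and was called lower at a 1.5-fold limit. CELSR1 in the same class reached a larger difference without being called. It measured 0.54 to 2.08 CPM in intact and 1.40 to 67.9 in injured cord, with 3 injured libraries above the intact range.

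Between the 3 intact segments, which came from 1 animal, a member was called where the highest segment was at least 2-fold above the lowest. In OPC-like nuclei 0 of 21 members were called (2.44% of all genes tested), in neuron-like nuclei 1 of 28 (2.37%), in oligodendrocyte-like nuclei 2 of 21 (2.56%), in microglia-like nuclei 4 of 11 (2.99%) and in astrocyte-like nuclei 5 of 19 (9.82%). In astrocyte-like nuclei CDH19 measured 23.9, 52.8 and 2.67 CPM in cervical, thoracic and lumbar cord, 19.8-fold from lowest to highest. The summed level of 8 oligodendrocyte markers in the same nuclei moved with it, at 825, 3208 and 334, and its part in the result was not tested. CDH13, CDH12, CDH8 and CDH22 were also highest in thoracic astrocyte-like nuclei, by 2.02- to 2.30-fold over the lowest segment. The cluster led by SLC14A1 and MYBPC1 held 61, 84.1 and 52.3% of these nuclei in cervical, thoracic and lumbar cord. Within it CDH13 measured 53.5, 53.7 and 42.0, CDH12 50.04, 43.9 and 34.1 and CDH22 51.7, 49.1 and 46.9 in the same order, under 2-fold apart. Within the cluster led by ITPRID1 and SLC1A2 CDH13 measured 24.7, 32.6 and 10.4, CDH12 2.39, 4.66 and 3.15 and CDH22 1.06, 4.66 and 1.35, each highest in thoracic cord. The CDH12 and CDH22 levels there rested on 4 to 14 UMIs. CDH8 was highest in thoracic cord within the first cluster, at 16.8 against 6.69 and 6.42, and within the second, at 25.1 against 10.1 and 12.8. In microglia-like nuclei PCDH9 measured 519.7, 269 and 163 in cervical, thoracic and lumbar cord and CDH18 16.8, 4.78 and 12.96, 3.18- and 3.51-fold from lowest to highest. The oligodendrocyte marker sum of those nuclei was 1309, 1249 and 1011 and the neuron marker sum 131, 45 and 144 in the same order. CDH6 and CDH20 were lowest in lumbar microglia-like nuclei, by 2.20- and 2.15-fold. CDH12 and CDH18 in oligodendrocyte-like nuclei were lowest in thoracic cord, by 2.06- and 2.27-fold, and CDH17 in neuron-like nuclei was highest there, by 2.496-fold.

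Within neuron-like nuclei the members were also compared between sub-clusters. The 9831 neuron-like nuclei were clustered again without members and transmitter genes into 36 sub-clusters, of which 13 (3125 nuclei) held at least 3 of GAD1, GAD2, SLC32A1 and SLC6A5 and are called inhibitory-like, and 13 (3434 nuclei) held SLC17A6, the gene of a vesicular glutamate transporter. The naming itself set no such minimum, and any detected transmitter marker counted. Of the 28 members tested, 21 were higher on the same side in all 7 libraries, by any fold (40.3% of all genes tested). At least 2-fold in all 7 libraries were 3 members higher in the inhibitory-like sub-clusters (1.92% of all genes tested) and 0 higher in the SLC17A6 sub-clusters (1.84%). The 3 were CDH20, at 40.5 to 80.2 CPM in inhibitory-like and 10.6 to 25.6 in SLC17A6 sub-clusters, CDH6, at 36.5 to 58.5 and 10.3 to 21.7, and CDH3, at 29.0 to 52.2 and 11.8 to 20.3. The sides did not overlap for any of these 3 genes, although each side takes in sub-clusters with uneven levels, as described below. PCDH19 was likewise higher on the inhibitory-like side, at 65.4 to 86.2 against 27.4 to 38.3, and CDH17, a low gene, at 1.93 to 4.25 against 0.712 to 2.85. On the SLC17A6 side CDH11 measured 218.5 to 306.5 against 111 to 135, CDH10 205 to 268 against 83.9 to 138, and CDH9 59.1 to 80.8 against 23.4 to 55.5. CDH22 (27.4 to 56.9 against 10.9 to 38.3) and CDH23 (11.8 to 29.6 against 4.89 to 13.2) were higher on that side in each of the 7 libraries, although their ranges over libraries overlapped. CDH13 differed little between the sides and was higher in the SLC17A6 sub-clusters in 5 of 7 libraries.

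Some members ranged widely over the sub-clusters, which were defined on the same nuclei. How widely all genes ranged over them was not counted. Over the 27 sub-clusters of either side or of the cholinergic group with at least 100 nuclei, all libraries together, CDH9 ran from 0.790 to 513 CPM, highest in the SLC17A6 sub-cluster led by CCDC102B and NMUR2. CDH12 ran from 2.03 to 1245, highest in the inhibitory-like sub-cluster led by RORB and CNGB3, with 1194 in the next. CDH4 ran from 2.81 to 823, highest in the SLC17A6 sub-cluster led by UCN3 and PIEZO2. For these 3 genes the fold from lowest to highest was 649, 614 and 293, with lowest values that rested on 6, 11 and 19 UMIs. CDH20 reached 442 in the inhibitory-like sub-cluster led by TSHR and PTH2R, against 118 in the next and a median of 19.5 over the 27. CDH3 reached 103 in the inhibitory-like sub-cluster led by NPY and NR2F2 and 93.6 in that led by FST, against a median of 15.4. CDH6 was highest in a cholinergic sub-cluster, at 148, with 120 in the next, an inhibitory-like one, against a median of 19.7. CDH13 ran from 15.7 in the inhibitory-like sub-cluster led by FST to 1263 in the SLC17A6 sub-cluster led by INSC and COL22A1. PCDH11X ran from 8.55 to 1420, highest in the inhibitory-like sub-cluster led by DNAH8 and ADAMTS20, with 1165 in the next. Not every member ranged so widely: PCDHGB5 differed by 2.47-fold, CDH26 by 2.19-fold, PCDH1 by 2.95-fold and PCDH10 by 7.30-fold between the lowest and highest of the 27.

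Intact and injured cord were also compared over the sub-clusters. For the 21 members that reached 100 CPM in a sub-cluster, compared over 26 sub-clusters, 17 had the same highest sub-cluster in the 3 intact and in the 4 injured libraries pooled (57.9% of all genes at that level), and for all 21 the highest intact sub-cluster was among the first 3 after injury (84%). The genes used to define the sub-clusters, which the members were not, are among all genes here. CDH13 measured 1183 in intact and 1356 in injured nuclei of the INSC and COL22A1 sub-cluster. CDH9 measured 522 and 504 in its highest sub-cluster and CDH20 463 and 414. Pearson r between intact and injured levels on the log2 scale lay between 0.85 (CDH23) and 0.98 (CDH12 and CDH13 among others) over the 26 sub-clusters, as a description, since sub-clusters share libraries and were defined on the same nuclei.

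**Figure D5:**
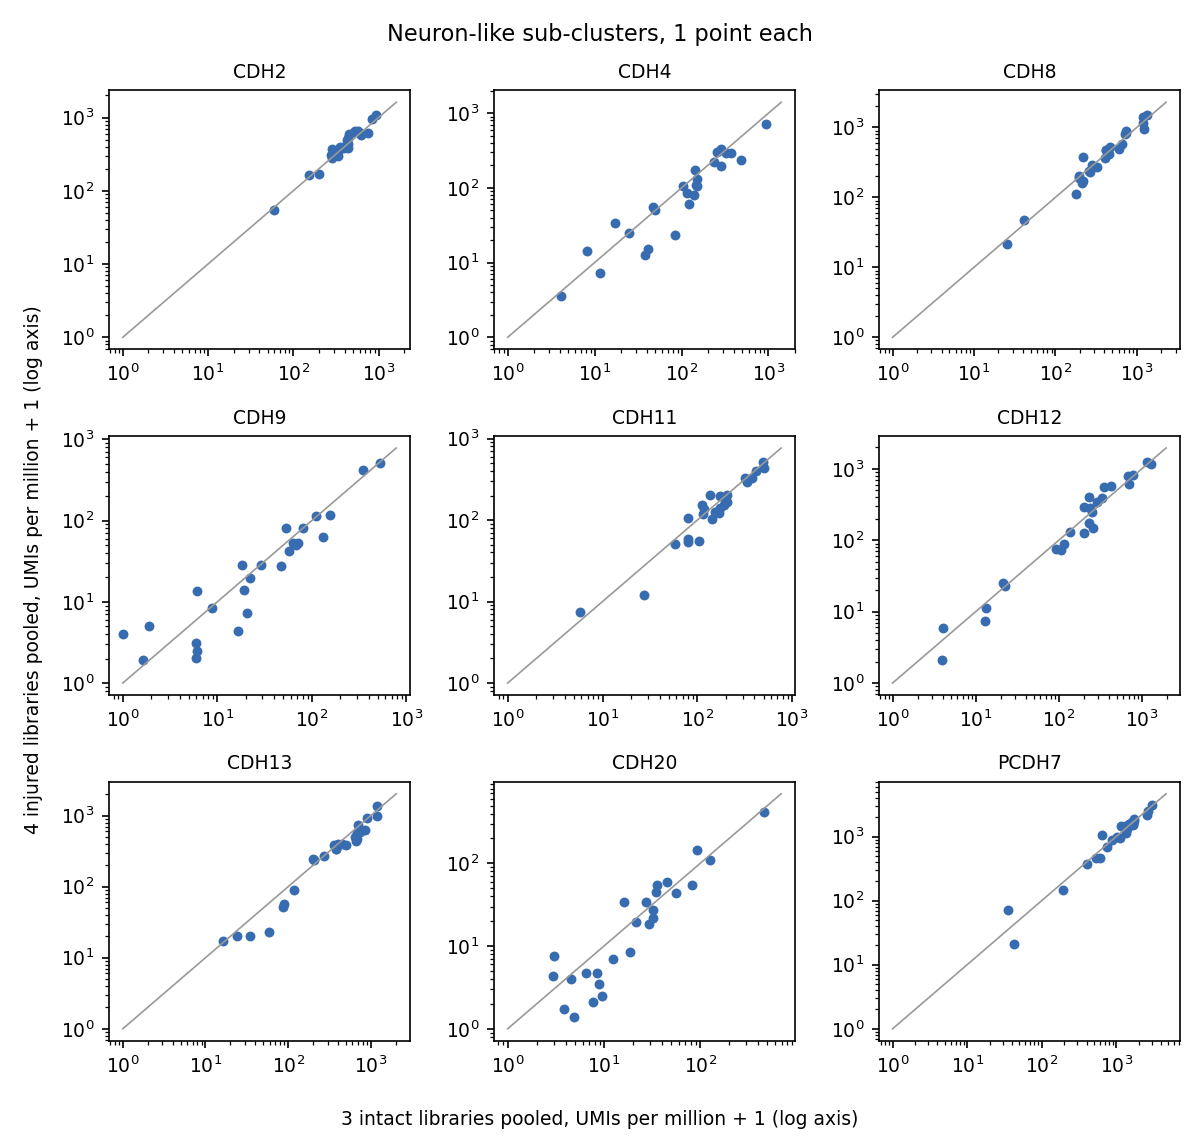
Levels of 9 genes in the neuron-like sub-clusters, in CPM plus 1 on log axes, with the 3 intact libraries pooled on the horizontal and the 4 injured libraries on the vertical axis, 1 point per sub-cluster and a line where both are equal. Points lie near the line over most of each gene's range, and the topmost CDH13 point stands at 1183 in intact and 1356 in injured nuclei.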

How the data were processed

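Nuclei were released from spinal cord with a dounce homogenizer, and libraries were made with 10x Chromium v3 chemistry. The authors deposited, for each library, a matrix of raw UMI counts per gene and barcode, filtered to called nuclei. Per the labels the submitters' processing notes name Cell Ranger 6.0.0. Here, nuclei with at least 500 genes, 1000 UMIs and at most 10% mitochondrial and 5% hemoglobin UMIs were kept, the 5% per library with the highest doublet scores were removed, and free RNA was not subtracted. Identifiers without a symbol were named from a reference table where it gave a name (959 of 35432). Counts were normalized per nucleus, and 2000 variable genes without the members were reduced to 30 principal components and clustered (scanpy 1.11.5, leidenalg 0.10.2). No correction for differences between libraries was applied before clustering. A cluster was named from at least 3 detected markers. A second class blocked a name only if at least 3 of its own markers were detected, a step that was added after the data were seen. Neither minimum of 3 applied to the neuron-like sub-clusters, where any detected transmitter marker counted. UMIs were summed per class and library and given as CPM (counts per 1000000), with exact Poisson, conditional binomial and Clopper-Pearson 95% intervals, and 3 UMIs stood in for 0 in calls. UMIs per library, 45079131 to 150987900, set the precision.

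The members and lists were chosen with earlier results of these data known. Genes named are CDH13, the called members, members at a mean of 100 CPM or more in a class, at most 5 members a class between segments, at most 5 a neuron side, called partners and the 5 genes most like CDH13. CDH1, CDH3, CDH4, CDH6, CDH7, CDH12, CDH18, CDH23, CDH5, PCDH1, PCDH8, PCDH11X, PCDH15, PCDH19, PCDH20, JUP, CELSR1 and the low genes, where they fell outside this rule, were chosen after their values were seen. Alternatives covered baseline, scaling, doublets, naming, thinning, fold, minimum and leaving out each library. The promoters of other genes are not reported here.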

Additional observations from a re-analysis of the deposited data

Results flagged for a closer look

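PCDH15 stood on opposite sides of the intact range in 2 classes of the same lineage. In OPC-like nuclei all 4 injured libraries lay above all 3 intact ones, the lowest injured over the highest intact library by 0.01 on the log2 scale. In oligodendrocyte-like nuclei all 4 lay below, the highest injured over the lowest intact library by -0.15. The difference between the classes was not tested, and the margin in both classes was within counting error. Against intact lumbar cord PCDH15 in oligodendrocyte-like nuclei stood at -0.155 (-0.451 to 0.137) at 14 dpi and -0.193 (-0.563 to 0.165) at 6 mpi.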

How the results depend on the processing

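With 1 library per condition, the direction of each call could be checked only against other settings. The CDH13 log2 ratio to intact lumbar cord in microglia-like nuclei stayed below -6 in each. At 7 dpi it moved to -6.999 with the mean of the 3 intact libraries as baseline, -7.04 with each nucleus named alone and -6.93 after thinning. At 14 dpi it moved to -8.01 and -7.69 (mean baseline, thinning), at 30 dpi to -8.50, -8.42 and -8.43 (mean baseline, no doublet removal, thinning), and at 6 mpi to -6.35, -6.08, -7.01, -6.24 and -7.06 (mean baseline, nuclei named alone, thinning, strict naming, largest cluster). Unthinned shares of microglia-like nuclei with CDH13 were 66.3, 67.3 and 76.1% in intact and 2.62, 1.98, 1.86 and 2.44% in injured cord.

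With intact lumbar cord alone as baseline, 1 member was called lower in oligodendrocyte-like nuclei (PCDH19, against 0.72% of all genes tested), 1 higher in astrocyte-like (CDH19, 1.34%) and 1 higher in microglia-like nuclei (CDH1, 2.74%), and 1 partner was called higher in microglia-like nuclei (CELSR1). At 1.5-fold, 1 member was called lower in oligodendrocyte-like (PCDH19, 1.23%) and 1 in astrocyte-like nuclei (CDH18, 0.568%), and 1 partner lower in microglia-like nuclei (JUP, 1.85%). With no minimum of UMIs, where the 3 UMIs that stand in for 0 can set the fold of genes near 0, 1 partner was called higher in oligodendrocyte-like nuclei (ADIPOQ, 0.721%, with 42 UMIs in all), and 6.78% of all genes were called higher in astrocyte-like nuclei, so that nothing is read from this setting. Leaving out 1 library at a time gave 0 to 1 members lower in oligodendrocyte-like nuclei (PCDH19 without 30 dpi, CDH13 without 6 mpi, each against 0.782%), 0 to 1 lower in astrocyte-like nuclei (CDH12 without 14 dpi, 0.307%, and CDH18 without 30 dpi, 0.352%), 0 to 1 higher in microglia-like nuclei (CDH1 without intact thoracic, 1.71%, and CDH4 without 14 dpi, 1.91%) and 1 to 2 lower there (CDH13, with CDH6 without intact lumbar, 0.959%, or 7 dpi, 1.08%). PCDH11X stayed called lower in oligodendrocyte-like nuclei under every alternative run. At 3-fold, members called between intact segments numbered 0 of 21 in oligodendrocyte-like (0.602% of all genes tested), 1 of 19 in astrocyte-like (4.25%), 0 of 28 in neuron-like (0.451%) and 2 of 11 in microglia-like nuclei (0.726%). The cause of these moves was not tested beyond the settings' own construction. Strict naming, the largest cluster, the looser count and leaving out libraries were chosen after seeing the data. No paired analysis was possible because each condition was 1 library. Few astrocyte-like nuclei after injury, 98 to 251, limit the low members there.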
